A study of Rattus norvegicus with 16 samples.

Results

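The lymphoid cells of rat intervertebral discs 2 weeks after surgery were the 4303 cells that the authors' K-means clustering had set apart as a class of their own, entered as immune cells in the deposited class column and called lymphoid in the study's text. They were taken from that column in all 8 libraries of the 2-week time point, which held 93925 cells (42560 from control and 51365 from punctured discs), out of 149272 cells in the series. The rats were male Sprague-Dawley animals, 8 weeks old, whose lumbar discs were exposed by surgery. The 2 discs of the lumbar disc puncture group (LDP) were each stabbed with a needle, and the control group (CON) was the 2 unpunctured discs above them in the same animal, so the control discs also came from an operated rat. The 2 discs of a group were pooled into 1 library per rat, and rats 1 to 4 gave the 4 CON and 4 LDP libraries of this time point.

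Lymphoid cells were found in 4 of the 8 libraries. CON rat 1 held 91 (0.772% of 11789 cells) and CON rats 2, 3 and 4 held 0. LDP rat 1 held 0, LDP rat 2 held 25 (0.157% of 15918), LDP rat 3 held 2781 (18.8% of 14763) and LDP rat 4 held 1406 (11.7% of 11975). Almost all of the class therefore came from a pair of punctured libraries, and all of its control cells came from 1 animal. For this reason nothing below is a test of puncture against control, and every library is described by itself. A share of 0 in the smallest of these libraries, CON rat 2 with 3896 cells, still allows 3 cells by counting error alone.

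B lymphocytes arise in bone marrow from precursors that cut and join their immunoglobulin genes. Pro-B cells and small pre-B cells carry the recombinase RAG1/RAG2, whereas large pre-B cells, which have just placed a pre-B-cell receptor (built with the surrogate light chains VPREB and IGLL1) on their surface, divide rapidly. Immature and mature B cells gain antigen presentation and survival receptors, and plasma cells secrete antibody. The stage of the lymphoid cells was therefore read from genes of these steps, and their division from genes of S phase (DNA synthesis) and of G2 and M phase (preparation for and passage through mitosis).

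The promoters of 4 genes on which the description turns are printed here, 2 of the B lineage and 2 of cell division, as the 250 bases before the RefSeq gene start in the build GRCr8. The deposited values were made on rn6, and no position was carried over. Rag1 encodes the catalytic subunit of the recombinase (chr3:108383185-108383434, minus strand), and its capitals mark an E-box, CAGGTG, the kind of letters that E proteins such as TCF3 bind. Blnk encodes the adaptor that links the B-cell receptor to its downstream enzymes (chr1:249770534-249770783, minus strand), and its capitals mark an octamer, ATGCAAAT, which lies on the opposite strand and is bound by POU2F factors with the coactivator POU2AF1. Top2a encodes the topoisomerase that separates replicated chromosomes (chr10:84473094-84473343, minus strand) and Cdk1 the mitotic kinase (chr20:19265043-19265292, plus strand). Their capitals mark CCAAT boxes and TTTGAA, the letters of a cell cycle homology element, on either strand.
Rag1: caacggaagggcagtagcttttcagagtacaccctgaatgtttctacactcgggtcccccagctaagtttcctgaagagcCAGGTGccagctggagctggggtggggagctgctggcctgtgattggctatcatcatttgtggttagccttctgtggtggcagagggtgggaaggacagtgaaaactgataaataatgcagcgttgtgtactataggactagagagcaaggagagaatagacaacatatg
Blnk: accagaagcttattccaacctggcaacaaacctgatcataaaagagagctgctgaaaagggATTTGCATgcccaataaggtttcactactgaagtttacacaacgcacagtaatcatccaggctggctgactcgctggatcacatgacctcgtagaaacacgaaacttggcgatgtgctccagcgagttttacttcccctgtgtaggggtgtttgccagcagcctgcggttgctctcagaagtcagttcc
Top2a: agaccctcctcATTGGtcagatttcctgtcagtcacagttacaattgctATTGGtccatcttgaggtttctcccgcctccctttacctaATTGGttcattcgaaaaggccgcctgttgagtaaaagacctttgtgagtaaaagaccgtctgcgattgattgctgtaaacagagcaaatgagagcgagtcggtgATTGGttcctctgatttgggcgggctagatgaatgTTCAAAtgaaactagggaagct
Cdk1: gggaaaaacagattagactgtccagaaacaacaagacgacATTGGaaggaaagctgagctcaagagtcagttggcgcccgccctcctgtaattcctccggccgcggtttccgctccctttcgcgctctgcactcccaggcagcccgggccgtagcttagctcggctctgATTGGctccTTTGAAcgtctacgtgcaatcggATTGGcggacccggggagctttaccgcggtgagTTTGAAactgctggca

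The E-box of Rag1 begins 170 bases before the gene start and the octamer of Blnk 189 bases before it. The TTTGAA copies begin 22 bases before the start of Top2a and 72 and 16 bases before that of Cdk1. Over 27457 rat genes with a promoter entry, the E-box was present on either strand in 17.0%, the octamer in 1.64%, TTTGAA in 17.2%, a CCAAT box in 36.1%, and TTTGAA together with a CCAAT box in 6.32%. Of 7 genes of the B lineage identity list with an entry, 3 held the E-box and 1 (Blnk) the octamer, while the early precursor list held the E-box in 3 of 18 (16.7%). None of the identity promoters held TCCCNNGGG, the letters of an EBF1 site, which 5.61% of all promoters held. Of 26 G2 and M phase genes with an entry from the cycle list used below, 14 held TTTGAA (53.8%), 18 a CCAAT box (69.2%) and 12 both (46.2%). Of 18 S phase genes of that list, 3 held TTTGAA and 9 a CCAAT box. These are matches of letters in a fixed window, and whether any of them is a binding site was not measured here. Cd79b, Myb and Vpreb1 had no entry.

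The class name was then checked against its markers. Values are CPM (the share of a cell's unique molecular identifiers (UMIs, each 1 captured RNA) that a gene took, scaled to 1000000), averaged over the cells of a class in a library. Cd79b, the signalling chain of the B-cell receptor, stood at 512 CPM in CON rat 1, 443 in LDP rat 2, 1281 in LDP rat 3 and 1475 in LDP rat 4. Blnk was at 739, 409, 842 and 766 CPM in the same order, and Myb, a transcription factor of dividing blood precursors, at 552, 275, 473 and 242 CPM. Both varied less among the libraries than Rag1, which was at 96.1, 379, 1561 and 690 CPM and was lowest in the control library. In endothelial cells of these libraries, which should carry none of the 4 genes, none passed 24 CPM.

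To compare cells of unequal depth, each cell was thinned to 1000 UMIs. At that depth 87.9% of the lymphoid cells of CON rat 1 held RNA of at least 1 of Cd79b, Blnk, Rag1 and Myb, against 61.9% in LDP rat 2, 93.0% in LDP rat 3 and 89.9% in LDP rat 4. The same share among endothelial cells was 0.230%, 0.166%, 3.57% and 1.69%, and its source was not tested. Thinning left out 0, 4, 494 and 63 lymphoid cells with too few UMIs, and the median lymphoid cell held 5296, 1687, 1319 and 1860 UMIs in the 4 libraries. With all UMIs, cells with at least 2 of the 4 markers numbered 86 of 91, 13 of 25, 2200 of 2781 and 1091 of 1406. The marker genes thus marked the class in the 3 larger sets of cells, and in fewer cells of LDP rat 2. Cd79b, Blnk and Myb are among the genes by which the study named this class. High shares within it were therefore given and are no test of the name.

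**Figure D1:**
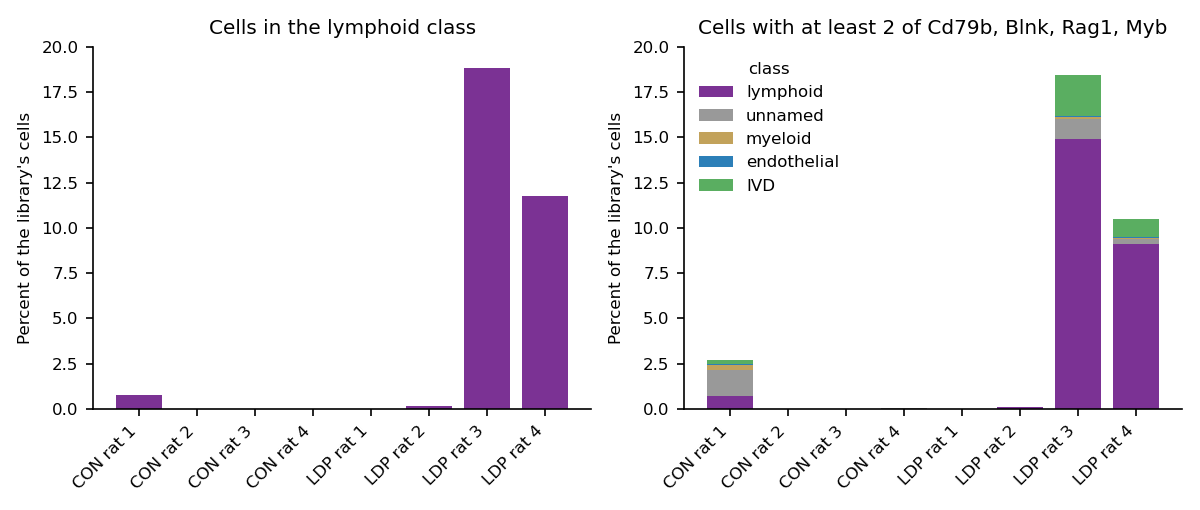
Bars give the percent of each 2-week library's cells that the deposited class column calls lymphoid (left) and the percent with at least 2 of Cd79b, Blnk, Rag1 and Myb among all UMIs, coloured by class (right). LDP rats 3 and 4 stand at 18.8% and 11.7% on the left, and in CON rat 1 the marker cells (2.70%) lie mostly outside the lymphoid class.

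Cells with at least 2 of the 4 markers were also present outside the class. CON rat 1 held 318 of them (2.70% of its cells), of which 86 were in the lymphoid class and 164 in the class that the authors left unnamed. LDP rat 3 held 2723 (18.4%), with 165 in the unnamed class, and LDP rat 4 held 1259 (10.5%), with 35 in the unnamed class. Disc cells made up 29 of these marker cells in CON rat 1, 330 in LDP rat 3 and 123 in LDP rat 4. CON rat 4 held 2, LDP rat 2 held 16, and CON rats 2 and 3 and LDP rat 1 held 0. The same libraries were therefore rich in B-lineage RNA whichever way the cells were chosen.

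The 3 libraries with most B-lineage cells also held most RNA of granulocytes and red cells. Outside the lymphoid class the summed level of 15 granulocyte genes was 1655 CPM in CON rat 1, 1504 in LDP rat 3 and 1303 in LDP rat 4, and between 5.18 and 34.0 CPM in the other 5 libraries. The summed level of the erythroid list, largely Hba-a2, a haemoglobin gene, was 607, 1441 and 3019 CPM in CON rat 1 and LDP rats 3 and 4, and between 2.81 and 277 CPM in the others. The macrophage list was highest in LDP rats 3 and 4, at 451 and 377 CPM, but in CON rat 2 (317 CPM) it lay above CON rat 1 (232 CPM). The part of blood in the lymphoid share was not tested. Barcodes shared by any pair of 2-week libraries numbered 10 to 75. LDP rats 3 and 4 shared 36, of which 2 were lymphoid in both.

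Gene by gene, the class was set against the other classes of its library. Among 7442 genes tested, 0 (0%) were at least 4-fold higher in lymphoid cells than in every other class, the unnamed class included, in CON rat 1 and LDP rats 3 and 4 alike, and 29 (0.39%) were at least 2-fold higher. Against the 3 other named classes (myeloid, endothelial and disc cells, the last called IVD by the authors) 63 genes (0.847%) were at least 4-fold higher. Without CON rat 1 these counts at 4-fold were 73 over every class and 249 over the named ones. The class was drawn from these values, so the counts describe it and are no test. The unnamed class held cells with the B-lineage markers, as given above.

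Several of the 29 genes are known from B cells. Pou2f2, an octamer-binding factor, was at 75.1 CPM in CON rat 1, 307 in LDP rat 3 and 155 in LDP rat 4, which was 1.78 to 1.84 higher on the log2 scale than the next class in each. Irf4, a factor of light chain recombination and later of plasma cells, was at 232, 440 and 355 CPM, and Spib, an ETS factor of B cells, at 176, 211 and 203 CPM. Tnfrsf13c, the receptor for the B-cell survival factor BAFF, was at 221, 593 and 497 CPM, Fcrla, an Fc receptor-like protein of B cells, at 199, 241 and 296 CPM, and Traf4 at 199, 320 and 307 CPM. Lig4, the ligase that closes the ends cut by the recombinase, was in the set at 38.7, 50.4 and 51.2 CPM. Cecr2, a chromatin reader, reached 592, 1234 and 602 CPM.

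The remaining genes among the 25 with the largest margins were RGD1563917, Rpl3l, Rasal1, Jsrp1, Kcnk12, AABR07055834.1, Il4i1, Mtf2, Vav2, Arpp21, Hsh2d, Gga3, Zfp821, Plekha2, Ddx54, Blnk and Gpr19. Of these, Mtf2, a Polycomb-associated protein, was at 467, 840 and 618 CPM in CON rat 1, LDP rat 3 and LDP rat 4. Most of the others were low, for example RGD1563917 at 10.2, 4.45 and 8.60 CPM and Hsh2d at 17.1, 14.2 and 9.13 CPM. Among the 63 genes against named classes were Igll1, Vpreb1, Blk, Lef1, Myb, Bach2, Tcf3, Cd79b, Cd72, Pou2af1, Mzb1 and Thy1, beside chromatin and division genes such as Ezh2 (1532, 365 and 389 CPM), Smc4, Bub1b and Pold1.

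B lineage identity genes were read as a list of 14, of which 11 were listed in the CON files and 13 in the LDP files. Of the members over 10 CPM, 5 of 11 (CON rat 1), 10 of 12 (LDP rat 3) and 11 of 12 (LDP rat 4) were at least 4-fold higher in lymphoid cells than in the other named classes. The background over all genes past that level was 429 of 9209 (4.66%), 311 of 8914 (3.49%) and 379 of 8529 (4.44%). The list's median difference was 1.90, 4.62 and 5.22 on the log2 scale, where that of all genes was −0.45, −0.63 and −0.53. The list holds the 4 markers used here to check the class, and the class was drawn from these genes among others, so its direction is no test. The smaller medians of CON rat 1 go with a summed list level of 848 CPM in its myeloid class, against 226 and 209 CPM in the myeloid classes of LDP rats 3 and 4.

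Among its members, Ebf1, a factor that commits cells to the B lineage, was at 380 CPM in CON rat 1, 198 in LDP rat 2, 543 in LDP rat 3 and 532 in LDP rat 4, with 113 to 163 CPM in endothelial cells of the same libraries. Pou2af1, the octamer coactivator, was at 341, 314 and 298 CPM in CON rat 1 and LDP rats 3 and 4. Pax5, the identity factor of the lineage, was not listed in the CON files and was at 25.2 and 26.3 CPM in LDP rats 3 and 4. Of 11 identity genes over 50 CPM, 2 were at least 2-fold lower in CON rat 1 than in both LDP libraries, where 310 of all 3546 genes (8.74%) were.

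Of the early B precursor list of 24, those at least 4-fold higher than in the named classes numbered 8 of 18 over 10 CPM (CON rat 1), 11 of 17 (LDP rat 3) and 13 of 18 (LDP rat 4), with medians of 1.86, 4.01 and 3.53. Among all genes 4.66%, 3.49% and 4.44% were, and these shares also stand beside the higher counts of the lists below. The list holds Rag1 and Myb, which are among the markers used to check the class, so its direction is no test either. Its members at least 4-fold lower numbered 3, 4 and 3, where 28%, 28.2% and 27.3% of all genes were lower in the same libraries. Akap12, a scaffold protein, was the most abundant member at 2186, 5015, 7056 and 2673 CPM over the 4 libraries. Lef1, a WNT effector of pro-B cells, was at 142, 77.9, 177 and 124 CPM. Kit, Flt3 and Cd34, which mark stem cells and the earliest lymphoid progenitors, were each below 4 CPM in the lymphoid cells of every library. The earliest precursors were thus not detected as a main part of the class at this depth.

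Genes of the pre-B-cell receptor step were low and uneven. Igll1 was at 192 CPM in CON rat 1, 47.4 in LDP rat 2, 67.4 in LDP rat 3 and 64.6 in LDP rat 4, and Vpreb1 at 62.6, 25.9, 5.40 and 14.0 CPM. Il7r, the receptor for the growth factor of early B cells, was at 279, 129, 37.1 and 31.7 CPM. Dntt, which adds bases at heavy chain joints in pro-B cells, was at 32.8, 50.5, 21.4 and 19.0 CPM. Igll1 and Il7r were highest in CON rat 1, where summed UMIs gave 195 UMIs per 1000000 for Igll1 (95% Poisson interval 158 to 237) against 103 (93.8 to 112) in LDP rat 3 and 89.6 (79.8 to 100) in LDP rat 4. For Il7r they gave 275 (231 to 325) in CON rat 1 and 62.5 (55.6 to 70.1) in LDP rat 3, and the interval in LDP rat 4 was 38.1 to 52.7. These intervals, and all others given for counts or shares, cover counting error only and not the spread between animals.

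Of the recombination list of 15 genes, those over 10 CPM and at least 4-fold higher were 0 of 12 (CON rat 1), 5 of 12 (LDP rat 3) and 5 of 11 (LDP rat 4). Rag1 made most of that list's level in the LDP libraries. RNA of Rag1 was found in 6.59% (2.46 to 13.8) of thinned lymphoid cells of CON rat 1, in 23.8% (8.22 to 47.2) of LDP rat 2, in 47.7% (45.6 to 49.7) of LDP rat 3 and in 32.9% (30.4 to 35.5) of LDP rat 4, against 0.115% to 1.02% in endothelial cells. Rag2, which encodes the partner of RAG1, was far lower in RNA than Rag1 in LDP rats 2, 3 and 4, at 25.9, 31.4 and 35.2 CPM. In CON rat 1 the genes lay nearer, with Rag2 at 64.9 and Rag1 at 96.1 CPM. The level of Rag1 did not go with that of Rag2 over these libraries, and 4 libraries are too few for a correlation.

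Later B-cell genes were mixed. Of the 22 genes of the immature and mature B list, 1 of 12 over 10 CPM (CON rat 1), 3 of 15 (LDP rat 3) and 4 of 14 (LDP rat 4) were at least 4-fold higher than in the named classes, and 8, 6 and 7 were at least 4-fold lower, beside the 28%, 28.2% and 27.3% of all genes. The summed level of the list in myeloid cells was 8935, 9086 and 13490 CPM in these libraries. Cd74, the invariant chain of antigen presentation, was at 32.3 CPM in CON rat 1, 1267 in LDP rat 2, 1298 in LDP rat 3 and 1014 in LDP rat 4. Ms4a1, which encodes CD20, was not listed in the CON files and was at 91.1, 87.1 and 20.3 CPM in LDP rats 2, 3 and 4. Cd40, a receptor for T-cell help, was at 6.33, 40.8, 92.7 and 148 CPM, beside 14.6 to 33.5 CPM in endothelial cells, so only the values of LDP rats 3 and 4 lay well above that level.

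Of the pre-BCR and BCR list of 20, 3 of 17 (CON rat 1), 6 of 17 (LDP rat 3) and 6 of 16 (LDP rat 4) were at least 4-fold higher. Syk, the kinase that reads the receptor, was at 168, 393, 550 and 391 CPM over the 4 libraries, and Blk, a SRC-family kinase of B cells, at 134, 178, 234 and 194 CPM. Of the 18 B-lineage transcription factors, 6 of 17, 10 of 18 and 12 of 18 passed the same limit. Tcf3, the E protein of the lineage, was at 290, 302, 379 and 344 CPM and Bach2 at 78.0, 125, 142 and 107 CPM.

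Plasma cell and T cell genes were uneven. The plasma cell list summed to 524, 399, 720 and 684 CPM in lymphoid cells over the 4 libraries, above every other class of each library. Irf4, also a factor of light chain recombination, gave 232, 178, 440 and 355 CPM of these sums. Disc cells summed to 382, 331, 356 and 258 CPM, so the rank of the lymphoid sums rests largely on that gene. The list's median difference was negative in each library, at −2.15, −2.36, −0.95 and −0.79 on the log2 scale, where all genes had −0.45, −0.70, −0.63 and −0.53. At least 4-fold lower were 4, 4, 3 and 4 of 8 members, and 28%, 37.6%, 28.2% and 27.3% of all genes, so a list of this size is not set apart by that count. Mzb1, a chaperone of antibody secretion, was at 157, 57.8, 128 and 229 CPM, and Jchain, the chain that joins antibody units, at 47.7, 44.2 and 29.5 CPM in CON rat 1 and LDP rats 3 and 4 and highest in LDP rat 2. Of 10 plasma cell genes, 1 of 8 over 10 CPM in CON rat 1 and 3 of 8 in LDP rats 2, 3 and 4 passed 4-fold. Sdc1, the surface marker of plasma cells, was at 4.60, 0, 7.98 and 5.79 CPM, and Prdm1, their master regulator, at 9.48, 0, 6.80 and 5.41 CPM, below its 36.4 to 70.7 CPM in endothelial cells. In the T and NK list, 0 of 5 members over 10 CPM in CON rat 1 and 1 of 5 in LDP rats 3 and 4 passed 4-fold. In LDP rat 2 it was 5 of 7, with a summed level of 155 CPM over 25 cells, against 735 of 9237 (7.96%) among all genes. Cd3g, a chain of the T-cell receptor complex, was at 15.2, 18.6 and 34.9 CPM in LDP rats 2, 3 and 4, and Cd4 was below 1 CPM in lymphoid cells throughout. The 15.2 CPM of LDP rat 2 came from 1 of its 25 cells, so a single cell can carry a gene past 10 CPM there. The 5 of 7 members of that library are therefore no measure of T cells.

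Cells were also screened singly for T and NK genes. Low counts here are no measure of absence, since only 9 of the 21 genes were listed in the CON files and 11 in the LDP files. With Lck left out, since B cells use it too, 14 cells of LDP rat 3 (0.503%), 6 of LDP rat 4 (0.427%), 1 of LDP rat 2 and 0 of CON rat 1 held at least 2 of these genes. None of the 4 B-lineage markers was found in 8 of the 14 and 4 of the 6, and at least 2 markers in 4 and 1. RNA of Cd3g was found in 81 lymphoid cells of LDP rat 3, 64 of which also held at least 2 of Cd79b, Blnk, Rag1 and Myb. In LDP rat 4 it was found in 101, of which 84 did. Over all lymphoid cells that share was 79.1% in LDP rat 3 and 77.6% in LDP rat 4, so these counts do not tell the cells with Cd3g RNA from the class.

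**Figure D2:**
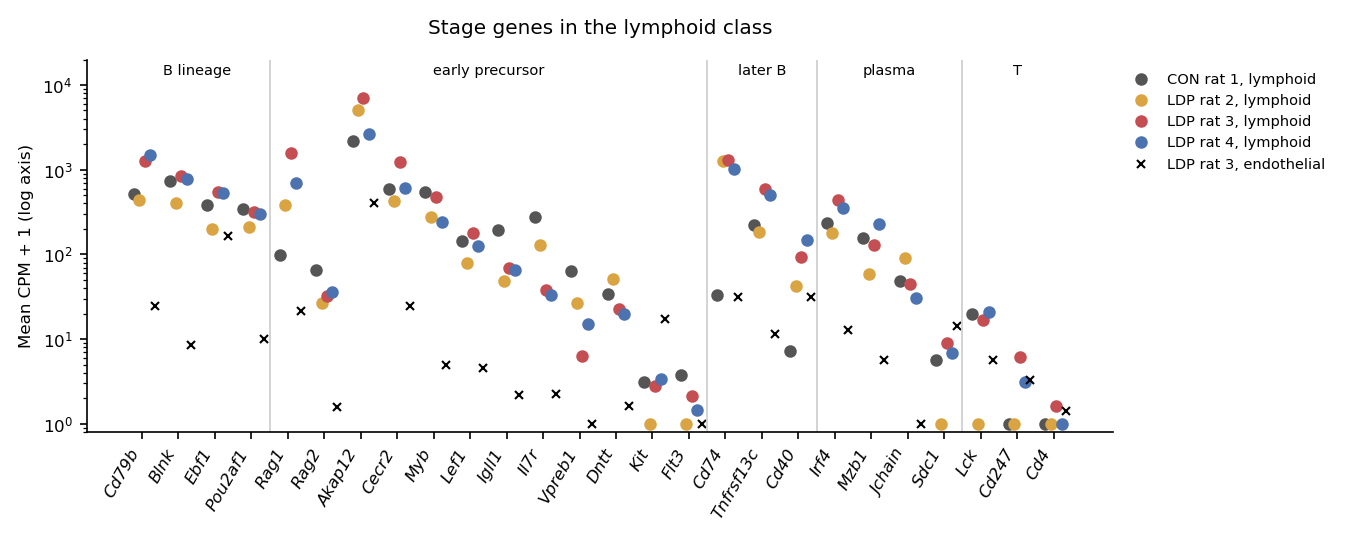
Points give the mean CPM plus 1 of stage genes in lymphoid cells of the 4 libraries that hold them, on a log axis, with crosses for endothelial cells of LDP rat 3 as background. Rag1 and Cd74 are lowest in CON rat 1 while Igll1, Il7r and Vpreb1 are highest there over all cells, and Kit, Flt3 and Cd4 lie near 0 in every library.

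Cell division was first called from 94 genes of S phase and of G2 and M phase, as a cell with at least 2 UMIs of them among 1000. By that rule 100% of the lymphoid cells of CON rat 1, 95.2% of LDP rat 2, 91.4% of LDP rat 3 and 86.4% of LDP rat 4 counted as cycling. Endothelial cells passed it at 67.1% to 75.9% over the 8 libraries and disc cells at 34.0% to 42.4%, so the rule did not separate dividing cells. The lists hold genes such as Pcna and Hmgb2 that all these classes express. A stricter list, chosen after these values were seen, kept the 55 genes (25 of S phase, 30 of G2 and M phase) that were listed in the files of all 4 libraries without lymphoid cells and below 20 CPM in their endothelial and disc cells.

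With the strict list, cells with cycle-gene RNA made up 96.7% of the lymphoid cells of CON rat 1 (88 of 91, 95% exact interval 90.7 to 99.3). They made up 14.3% in LDP rat 2 (3 of 21, 3.05 to 36.3), 19.9% in LDP rat 3 (454 of 2287, 18.2 to 21.5) and 22.0% in LDP rat 4 (296 of 1343, 19.8 to 24.4). Endothelial cells stood at 1.83% to 3.74% over the 8 libraries, disc cells at 0.611% to 1.13% and myeloid cells at 3.28% to 16.0%. As deposited, the lymphoid class of the control library thus lay apart from that of the punctured ones. The 2 groups had been clustered apart, and unnamed cells with at least 2 of the 4 markers went the other way. Their shares were 6.67% in CON rat 1, 97.6% in LDP rat 3 and 91.4% in LDP rat 4, as described further below. The list was chosen to be low in endothelial and disc cells, so their low shares were given, and myeloid cells, not used in that choice, reached 16.0% where LDP rat 2 lymphoid cells had 14.3%. Without thinning, the same rule on all UMIs gave 100%, 24.0%, 24.7% and 35.9%.

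**Figure D3:**
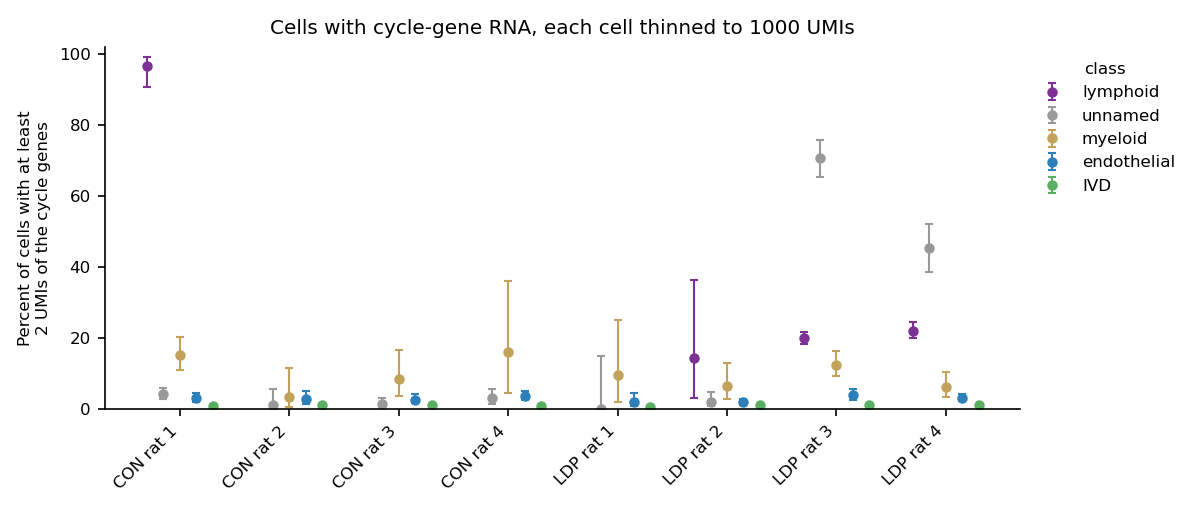
Points give the percent of cells of each class with at least 2 UMIs of the 55 strict cycle genes at 1000 UMIs per cell, with exact 95% intervals for counting error. Lymphoid cells stand at 96.7% in CON rat 1 and near 20% in LDP rats 3 and 4, and the unnamed class reaches 70.8% and 45.2% in LDP rats 3 and 4.

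Single genes were likewise highest in CON rat 1, but LDP rats 3 and 4 had no common order. Mki67, the proliferation antigen, was at 3242 CPM in the lymphoid cells of CON rat 1, 106 in LDP rat 2, 261 in LDP rat 3 and 172 in LDP rat 4, with 18.2 to 32.9 CPM in endothelial cells of these libraries. Top2a was at 1848, 24.2, 120 and 181 CPM, and Cdk1 at 156, 0, 10.4 and 17.8 CPM. Summed UMIs of Mki67 per 1000000 had intervals of 2938 to 3245 in CON rat 1, 423 to 461 in LDP rat 3 and 217 to 250 in LDP rat 4.

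By phase, 86.8% of the lymphoid cells of CON rat 1 held RNA of strict genes of both lists. In LDP rat 3, 58.4% held neither, 12.1% genes of S phase only, 18.0% genes of G2 and M phase only and 11.6% both, and in LDP rat 4 the shares were 60.2%, 10.8%, 18.8% and 10.2%. The split of LDP rats 3 and 4 was alike to within 2 percentage points in each part. Genes of cell cycle entry and arrest had no common direction, with 4 of 9 over 50 CPM at least 2-fold higher and 3 lower in CON rat 1 than in both LDP libraries. Of all 3546 genes, 14.6% were higher and 8.74% lower. Btg2, an antiproliferative gene, was at 454 CPM in CON rat 1, 1004 in LDP rat 2, 2656 in LDP rat 3 and 3460 in LDP rat 4, and its relative Btg1 at 333, 411, 897 and 1038 CPM.

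Depth moved with these shares. In LDP rat 3, cells with cycle-gene RNA were 9.46% of lymphoid cells of 1000 to 2000 UMIs, 44.4% of those of 2000 to 4000 and 64.0% above, all counted at 1000 UMIs per cell. In LDP rat 4 they were 10.9%, 28.3% and 50.3%. Among lymphoid cells between 2986 and 8900 UMIs, the range of CON rat 1 with its tails left out, the shares were 95.9% (88.5 to 99.1) in CON rat 1, 63.2% (57.1 to 69.0) in LDP rat 3 and 44.4% (38.9 to 50.1) in LDP rat 4. CON rat 1 was still highest within that range, while LDP rat 3 lay above LDP rat 4, unlike over all cells. The median cell of the range still differed in depth, at 5296, 3905 and 4129 UMIs. In these cells Rag1 was at 115, 526 and 327 CPM and Cd74 at 23.3, 249 and 471 CPM. Igll1 was at 203, 206 and 134 CPM, so it was not highest in CON rat 1 at like depth, and Il7r was at 306, 141 and 63.5 CPM.

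Within LDP rats 3 and 4 the lymphoid cells with cycle-gene RNA were set against the others, 454 against 1833 and 296 against 1047 cells. The split by the 94 genes left 196 and 182 other cells in these libraries, and of 3336 genes it put 28 (0.839%) at least 2-fold higher and 11 (0.33%) at least 2-fold lower in both. With the strict list and outside the 2 cycle lists, 181 of 3414 genes (5.3%) were at least 2-fold higher in the first in both libraries and 24 (0.703%) were at least 2-fold lower. The higher set was led by further genes of division. Ccna2, cyclin A2, was at 66.1 against 1.64 CPM in LDP rat 3 and 60.8 against 1.91 in LDP rat 4. Ccnb1, cyclin B1, was at 145 against 7.09 and 196 against 15.3 CPM. Esco2, Kif15, Ncapg, Pclaf, Cdt1 and 3 unnamed loci made up the rest of the 10 with the largest margins.

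Rag1 was the recombination gene among the 24 lower ones. At 1000 UMIs it stood at 670 CPM in cells with cycle-gene RNA and 1643 in the others of LDP rat 3, a log2 difference of −1.29, and at 233 and 813 CPM in LDP rat 4, a difference of −1.80. It was found in 28.4% (24.3 to 32.8) against 52.4% (50.1 to 54.7) of the cells in LDP rat 3, and in 15.5% (11.6 to 20.2) against 37.8% (34.9 to 40.8) in LDP rat 4. With 1 cycle-gene UMI as the limit in place of 2, Rag1 was at 1171 against 1648 CPM and 436 against 849, and no longer passed 2-fold. Ms4a1 was lower as well, at 24.2 against 90.6 and 3.38 against 20.1 CPM. Cd74 was at 489 against 1424 CPM in LDP rat 3 and 591 against 1159 in LDP rat 4, and fell short of 2-fold in the second. The others of the 10 with the largest margins were AC119007.3, AABR07034739.2, AABR07008142.2, Aebp1, Fbxo32, AABR07034739.1, LOC108351520 and Man1a2.

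Of the identity genes, Cd79b, Blnk and Myb differed little between the same cells. Cd79b was at 1070 against 1316 CPM in LDP rat 3 and 1280 against 1585 in LDP rat 4, Blnk at 811 against 876 and 801 against 778, and Myb at 507 against 491 and 247 against 214. Rag2 went the other way from Rag1, at 66.1 against 22.4 and 54.1 against 27.7 CPM, though in few cells (5.29% against 2.18%, and 4.39% against 2.58%). Igll1 was at 126 against 57.8 CPM in LDP rat 3 but 74.3 against 66.9 in LDP rat 4. Of the 11 identity genes over 50 CPM, 0 were higher and 1, Rag1, was lower in both libraries. Among all 3414 genes 5.3% were higher and 0.703% lower, so a count of 0 higher is near that share.

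**Figure D4:**
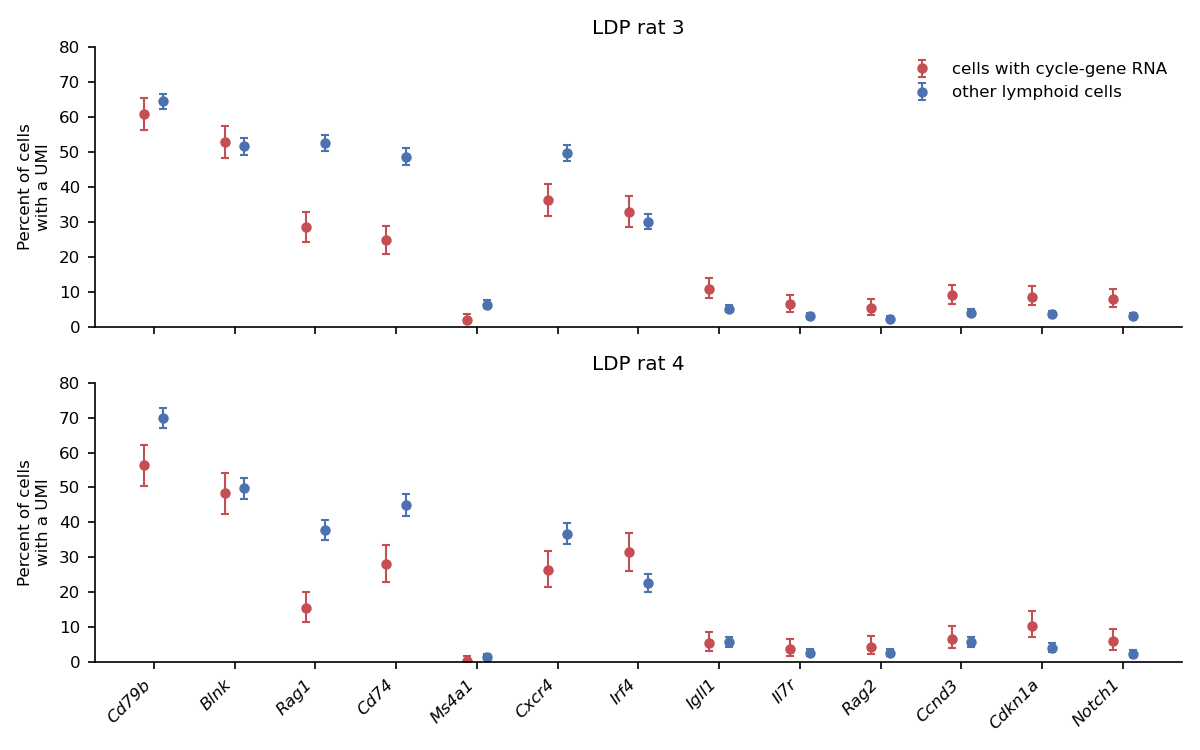
Points give the percent of thinned lymphoid cells with at least 1 UMI of a gene, in cells with cycle-gene RNA (red) and in other lymphoid cells (blue) of LDP rats 3 and 4, with exact 95% intervals for counting error. Rag1 and Cd74 lie lower in the red cells of both libraries, whereas Blnk lies at about the same height in both.

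The authors had also split the LDP lymphoid cells into 2 subclusters, with 2297 and 484 cells in LDP rat 3, 1048 and 358 in LDP rat 4 and 16 and 9 in LDP rat 2. Cells of the second were deeper, at a median of 3122 against 1216 UMIs in LDP rat 3 and 3971 against 1593 in LDP rat 4. They held cycle-gene RNA in 57.6% against 9.71% of cells and in 48.3% against 12.5%. The genes of these subclusters were used to draw them and are given as a description. Several precursor genes lay higher in the second, with Igll1 at 196 against 40.2 CPM in LDP rat 3 and 149 against 35.6 in LDP rat 4, Il7r at 140 against 15.3 and 80.2 against 15.2, and Dntt at 74.3 against 10.3 and 49.4 against 8.55. Others of the precursor list lay higher in the first, with Akap12 at 7825 against 3408 and 3073 against 1501 CPM and Cecr2 at 1316 against 847 and 663 against 425. Rag1 also lay higher in the first, at 1765 against 597 and 800 against 369 CPM, as did Cd74, at 1480 against 435 and 1191 against 499 CPM.

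Within each subcluster the difference in Rag1 between dividing and other cells remained in direction. In the first it was at 1137 against 1730 CPM in LDP rat 3 and 382 against 877 in LDP rat 4, and in the second at 376 against 946 and 127 against 514. Irf4 was at 869 against 427 and 740 against 331 CPM in the first subcluster, but at 430 against 395 and 335 against 319 in the second. Igll1 had no common direction in the first subcluster, at 57.1 against 41.2 and 24.4 against 41.8 CPM. In the second it was lower in both libraries, at 168 against 190 and 110 against 184 CPM. Rag2 had no common direction in the first, at 28.6 against 23.3 and 8.13 against 25.5 CPM. In the second it was higher in both libraries, at 89.6 against 14.6 and 86.7 against 37.8 CPM.

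The boundary of the class differed between the groups, which had been clustered apart. In CON rat 1 the 164 unnamed cells with at least 2 of the 4 markers had a median of 1222 UMIs, and 6.67% (2.92 to 12.7) of them held cycle-gene RNA, against 96.7% of the lymphoid class. Rag1 was at 1137 CPM in these unnamed cells against 96.1 in the class, and Cd74 at 1450 against 32.3 CPM. In LDP rat 3 it was the reverse: 165 unnamed cells with the markers had a median of 5683 UMIs, 97.6% (93.9 to 99.3) held cycle-gene RNA against 19.9% of the class, and Rag1 was at 205 against 1561 CPM. LDP rat 4 was like LDP rat 3, with 35 such cells, 91.4% (76.9 to 98.2) with cycle-gene RNA, and Rag1 at 61.3 against 690 CPM. The unnamed cells were chosen partly by Rag1 as a marker, a rule not applied to the class. The class itself was drawn by clustering from these genes among others, so its Rag1 level is not independent of that choice either. With both chosen by at least 2 of Cd79b, Blnk and Myb alone, Rag1 was at 831 CPM in unnamed and 101.7 in lymphoid cells of CON rat 1, at 197 and 1589 in LDP rat 3 and at 61.3 and 747 in LDP rat 4. Of all unnamed cells, Scrublet had marked 60 of 304 (LDP rat 3), 81 of 223 (LDP rat 4) and 21 of 730 (CON rat 1) as doublets. Among unnamed cells with the markers it had marked 4, 1 and 1. Without them the shares with cycle-gene RNA were 98.8%, 94.1% and 6.72% in the same order. Erythroid genes summed to 4828 and 5892 CPM in the unnamed cells with the markers of LDP rats 3 and 4, against 1078 and 3838 in the class, and their part in the result was not tested.

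**Figure D5:**
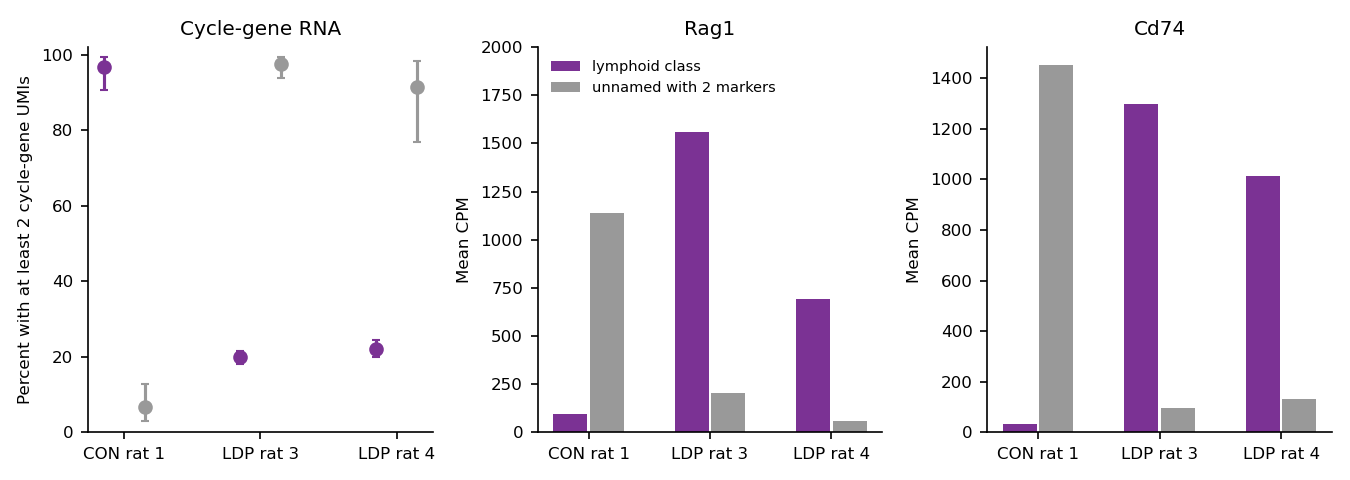
For CON rat 1, LDP rat 3 and LDP rat 4, the panels give the percent of cells with cycle-gene RNA (exact 95% intervals) and the mean CPM of Rag1 and Cd74, in the lymphoid class (purple) and in unnamed cells with at least 2 B-lineage markers (grey). The 2 sets of cells trade places between the control library and the punctured ones in all 3 panels, and the grey cells were chosen partly by Rag1.

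When cells were chosen by at least 2 of the 4 markers in any class, the libraries came closer. Cycle-gene RNA was then found in 42.0% (115 of 274, 36.1 to 48.1) of such cells in CON rat 1, in 24.9% (23.2 to 26.7) in LDP rat 3 and in 22.6% (279 of 1237) in LDP rat 4. These sets include disc cells with the markers. From the lymphoid and unnamed classes alone the shares were 44.2%, 27.5% and 24.4% in the same order. Cells below 1000 UMIs are not in these shares. In the sets from any class Rag1 was at 666, 1554 and 764 CPM and Cd74 at 853, 1031 and 867 CPM. Igll1 was at 123, 79.7 and 73.2 CPM there and Il7r at 226, 45.5 and 32.1 CPM. Rag1 is itself a marker here. Cd74 thus differed little between the 3 libraries once cells were chosen in this way, while Il7r was still highest in CON rat 1.

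Across the class as deposited, CON rat 1 and LDP rats 3 and 4 were compared with 1 control library and so with no test. Of 3546 genes at 50 CPM or more in at least 1 of the 3, 517 (14.6%) were at least 2-fold higher in CON rat 1 than in both LDP libraries and 310 (8.74%) at least 2-fold lower. Of S phase genes 31 of 33 and of G2 and M phase genes 37 of 42 were in the higher set. The largest margins were those of Esco2 (349 CPM against 19.3 and 15.6), Rrm2 (420 against 24.6 and 16.9), E2f8, Uhrf1, LOC100359539, Pbk, Rad51ap1, Plk1, Mki67 and Ccne1. On the lower side stood Cd74 and Mycl (0 against 94.7 and 63.2 CPM), Olr1, S100a5, Nfkbid (12.7 against 371 and 388), an NF-κB regulator, Slamf7, Rem2, Ifi27l2b, Icam1 (19.1 against 315 and 367), an adhesion molecule, and AABR07034739.2.

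The 2 punctured libraries also differed from each other. Of the same 3546 genes, LDP rat 4 exceeded LDP rat 3 by 2-fold or more in 83 (2.34%) and fell below it by as much in 268 (7.56%). Higher in LDP rat 4 were AABR07015057.1, Rpl30, RT1-Db1, LOC100134871, S100a5, RT1-T24-4, LOC100912564, Cdkn3, Hba-a2 (3366 against 899 CPM) and Bglap, the osteocalcin gene (339 against 99.6). Lower were Pcp4l1 (0.535 against 109 CPM), Col6a1 (11.8 against 127), Timp3, Col5a2, Ank2, Abi3bp, AC134224.2, LOC103690108, Col2a1 (270 against 1064) and Mt-nd6. Hba-a2 stood at 2793 and 573 CPM in endothelial cells of these libraries and Col2a1 at 194 and 649 CPM, so both moved in the same direction outside the class. The summed level of 12 disc cell genes in lymphoid cells was 2597, 5438, 5492 and 2583 CPM in CON rat 1 and LDP rats 2, 3 and 4, against 36886 to 52559 CPM in their disc cells and 1727 to 4321 CPM in their endothelial cells.

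Of the receptors through which B-cell precursors read their surroundings, those over 10 CPM and at least 4-fold higher were 0 of 10 (CON rat 1), 1 of 9 (LDP rat 3) and 1 of 10 (LDP rat 4), near the share of all genes. At least 4-fold lower were 5, 4 and 4, where 28%, 28.2% and 27.3% of all genes were. The median was −1.86 in LDP rat 3 and −1.33 in LDP rat 4, where that of all genes was −0.63 and −0.53. Cxcr4, which holds precursors in place, was at 307, 620, 827 and 551 CPM over the 4 libraries, beside 202 to 291 CPM in endothelial cells. Il2rg, the shared chain of the IL-7 receptor, was at 144, 527, 350 and 267 CPM. Itga4, an integrin that binds VCAM1, was at 55.6, 90.4, 85.2 and 59.4 CPM. Of the ligands, Cxcl12, the ligand of CXCR4, was at 205 CPM in endothelial cells of CON rat 1, 222 in LDP rat 3 and 294 in LDP rat 4 and below 3 CPM in lymphoid cells, and Kitlg at 564, 546 and 370 CPM in endothelial cells.

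The only comparison of the class with replicate libraries on each side was that of LDP lymphoid cells at 8 weeks (rats 5, 6, 7 and 8, with 397, 191, 679 and 193 cells) with those at 2 weeks (rats 2, 3 and 4). limma on log2(mean CPM + 1), with Benjamini-Hochberg adjustment over 8791 genes, called 0 genes (0%), while 1406 had an unadjusted p below 0.05. In simulated libraries of this design, 5 of 200 genes changed 4-fold were called, so a count of 0 says little. The 5 smallest p-values were those of Zfp566, Mfge8, Col2a1, Gadd45g and Sparc, all lower at 8 weeks, with an adjusted p of 0.159 each. Zfp566 was at 255, 238 and 147 CPM at 2 weeks and at 61.2, 61.7, 61.3 and 31.2 CPM at 8 weeks (log2 difference −1.98, SE 0.34). Col2a1 was at 497, 1064 and 270 CPM and then at 12.6, 8.70, 107 and 47.8 CPM. Both genes were picked by their small p, so the gap between their values adds no evidence.

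The lists gave the same picture of no call. Of 12 disc cell genes, 11 were tested and 0 called, with a median of −2.44 where all genes had 0.31. Of the S phase and the G2 and M phase lists, 40 and 49 genes were tested and 0 called, with medians of 1.30 and 1.14. These medians were 0.73 and 0.46 without LDP rat 2, whose 25 cells held 56667 UMIs in all and gave 0 for many genes. Lymphoid cells of the 2 times were classed in separate clusterings. Their median depth was 1319 to 1860 UMIs per library at 2 weeks and 1859 to 3704 at 8 weeks. The part of either in the cycle medians was not tested. Rag1 differed by −0.14 (SE 0.48, limma adjusted p = 0.889), Cd79b by −0.30 (SE 0.36, adjusted p = 0.663) and Blnk by −0.03 (SE 0.31, adjusted p = 0.967). Without LDP rat 2 these differences were larger, at −0.62, −0.84 and −0.35, with limma adjusted p of 0.455, 0.118 and 0.518. Without LDP rat 2, 8 genes were called in 8311. Higher at 8 weeks were Arl14ep, Cars and Iars, and lower were Icam1, Gadd45g, Ppp1r15a, Slc35b2 and LOC108351520, with adjusted p between 0.0316 and 0.0342.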

How the data were processed

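Single-cell libraries (10x Genomics, 3′ chemistry) of 16 samples had been aligned to rat rn6 and analysed in Partek, per the submitters' processing notes. The authors kept cells by mitochondrial share, genes and UMIs and named K-means clusters in each group. The deposited gene values were log2(CPM + 1). The authors' files also gave each cell's total as an expected count and its mitochondrial and ribosomal shares as percent. UMIs were recovered from both, and 99.4% of values were whole within 0.02. Cells were thinned at random to 1000 UMIs for shares.

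Groups came from the sample labels and classes from the deposited class columns. Fold differences used mean CPM + 1. Genes needed 10 CPM in a class, or 50 CPM for splits of the lymphoid class. Shares have exact binomial 95% intervals and summed UMIs exact Poisson intervals. LDP lymphoid cells at 8 and 2 weeks were compared by limma (trend) on log2(mean CPM + 1) per library, with 7 libraries and no replicate block. Scripts were tested on simulated data. Python 3.11.15, scipy 1.17.1, pandas 2.3.3, scanpy 1.11.5, R 4.3.3 and limma 3.58.1 were used. Scrublet marked 229 cells in CON rat 1 (3 lymphoid), 414 in LDP rat 3 (0 lymphoid) and 250 in LDP rat 4 (9 lymphoid). It marked under 0.5% in most other libraries, where its calls were not relied on, and doublets were kept.

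Members and gene lists were chosen with earlier results of these data known. Named genes were list members, the 25 genes with the largest margin over other classes, up to 10 genes per direction in each split or pair of libraries, and the 5 smallest p-values between times. Subcluster genes and the strict cycle list were chosen after their values were seen.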

Additional observations from a re-analysis of the deposited data

Results flagged for a closer look

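The same measures were checked in the control and in the LDP libraries, 8 sets in all, and 3 sets were flagged. All 3 were control sets, in which CON rat 1 was far from the other 3 control libraries. Among the control sets only the erythroid list was not flagged. Its share of lymphoid cells was 0.772%, against 0 in each of the others. Its share of cells with at least 2 of Cd79b, Blnk, Rag1 and Myb was 2.70%, and the next highest control library had 0.0149%. That the control lymphoid cells came from 1 library was known before, so these shares restate it and are no test. The granulocyte list outside the lymphoid class summed to 1655 CPM there, and the next highest was 9.65 CPM. The flag rested on the gap between CON rat 1 and the next control library, as a part of the range of the 4 values. This part was 1 for the lymphoid share, 0.994 for the marker share and 0.997 for the granulocyte list. With the other 3 control shares at 0, it was 1 for the lymphoid share by construction. The 3 flagged sets rest on the same library and are not independent, so no chance rate is given for them.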

How the results depend on the processing

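No paired analysis was possible because the libraries at 8 and 2 weeks came from different rats that share no numbers, and the other comparisons had no test. Genes higher than in every class went from 0 at 4-fold to 29 at 2-fold and to 0 to 73 with 1 library left out (73 without CON rat 1 and 6 without LDP rat 3). The 63 over named classes became 33 with a pseudocount of 10, 444 at 2-fold and 71 to 249 with 1 library left out. The mean of the early precursor list's median over CON rat 1 and LDP rats 3 and 4, 3.13, was 1.89 with a pseudocount of 10. That of the T and NK list over the same libraries, −3.51, was −1.42 with it and −1.24 with no minimum CPM. LDP rat 2, left out of these means, had medians of 3.67 and 3.04 for the 2 lists. The share of cycling cells by the 94 genes was 87.9% in CON rat 1 with RNA of Mki67 or Top2a as the rule. In LDP rat 2 it was 64.0% at 500 UMIs, 100% with 1 UMI as the limit, 14.3% with Mki67 or Top2a and 14.3% with the strict list. In LDP rats 3 and 4 it was 95.2% and 94.6% with all UMIs, 67.9% and 66.1% at 500 UMIs, 97.9% and 95.8% with 1 UMI, 80.1% and 75.7% with 3 UMIs, 15.7% and 13.6% with Mki67 or Top2a, and 19.9% and 22.0% with the strict list.

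In the split by the 94 genes, 28 genes were higher and 11 lower, and these became 52 and 48 with all UMIs, 213 and 34 with Mki67 or Top2a, 181 and 24 with the strict list, and 70 to 140 and 53 to 110 with 1 library left out. The strict split gave 79 and 3 with 1 UMI as the limit (Fbxo32, Sh3bp4 and LOC108351520 lower, named after their values were seen) and 201 to 301 and 58 to 76 with 1 library left out. Between times the count of 0 became 7 with a pseudocount of 10 (Col11a1, Col1a1, Col2a1, Icam1, Mfge8, Sparc and Zfp566, all lower at 8 weeks), 8 with at least 50 cells per library, and 0 to 8 with 1 library left out, 8 of them without LDP rat 2 and 1 (Col2a1) without LDP rat 7. The causes were not tested. Of the other values recomputed, 61 kept their direction and size. Depth limits genes under about 10 CPM, and LDP rat 2, with 25 cells, limits every value taken from it.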
